A study of Mus musculus with 64 samples.

Results

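The genes described here are 5 mucins (Muc1, Muc4, Muc15, Muc16 and Muc20) together with Upk3a, A2m and Bpifb5, taken by gene name from the deposited table. They are 8 of the 55385 genes counted in mouse mammary tumors, and all 8 passed the filter on low counts, as did 22187 genes in all. Upk3a, A2m and Bpifb5 were selected on their large differences between mice in these same tumors. Their levels between mice are therefore given as a description with no test, while the mucins were taken by name. As background, A2m and Bpifb5 encode secreted proteins, whereas the 5 mucins are membrane-bound mucins and Upk3a is a membrane protein of the bladder lining, so that "secreted" fits only part of the group.

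The tumors came from 4 female PyMT mice, 2 tumors from each. These animals express the polyoma virus middle T oncogene in mammary epithelium, which drives tumor growth, and in this study Abi1, a subunit of the WAVE complex that drives actin branching, was floxed and deleted by a mammary Cre under the MMTV promoter. Tumors 3 and 6 of mouse G164 were heterozygous KO (Abi1 fl/wt with Cre) and were compared with tumors 6 and 8 of G144, its control (fl/wt, Cre-). Tumors 1 and 6 of mouse G174 were homozygous KO (Abi1 fl/fl with Cre) and were compared with tumors 6 and 9 of G184, its control (fl/fl, Cre-). All 4 mice carried PyMT and at least 1 floxed allele, the Cre line was of mixed strain and the other lines were C57BL6, and by the study's pathology records G164 and G184 were older than G144 and G174. Each genotype is a single mouse, so genotype, age and mouse cannot be told apart. In tests of single mice against each other, p-values rest on how far the 2 tumors from the same animal differ. Only the comparison of Cre+ with Cre- mice, on counts summed per mouse, rests on differences among mice with the same Cre status. In bulk tumor RNA, fewer cells of a type and less RNA per cell cannot be told apart.

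Mucins are long glycoproteins whose repeats, rich in serine and threonine, are covered with O-linked sugars. The membrane-bound ones line the apical side of luminal epithelium, and their tails take part in signaling through receptor kinases. Uroplakins form plaques on the urothelium, where Upk3a pairs with Upk1b. A2m is a broad protease trap cleared by the receptor Lrp1, and it is made in the liver and by some tumors and stromal cells. Bpifb5 belongs to the BPI fold family of lipid-binding proteins secreted by airway and oral epithelium.

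Levels are given in CPM, counts scaled to a common library size with TMM factors. Each tumor held between 50346075 and 69264893 counts in genes. Abi1 was at 63.1 and 66.7 CPM in G164, against 111 and 130 CPM in G144. It was at 8.93 and 6.47 CPM in G174, against 114 and 122 CPM in G184, in the direction of the labels in both pairs. The 8 luminal epithelial markers summed to between 3352 and 4157 CPM in every tumor. Other marker sets moved with the mice. The 10 immune markers summed to 372 and 445 CPM in G164, against 161 and 191 CPM in G144, and to 167 and 166 CPM in G174, against 397 and 506 CPM in G184. The 13 keratinizing markers summed to 187 and 134 CPM in G164 and to between 10.3 and 23.1 CPM in the other 6 tumors, and Sprr3 among them had no count in any tumor. The 8 basal and myoepithelial markers summed to 1021 and 875 CPM in G164, against 469.9 and 395 CPM in G144. They summed to 153 and 463 CPM in G174, against 353 and 1108 CPM in G184, and overlapped there. Skeletal muscle genes were high in 2 tumors, with Ckm, the muscle creatine kinase, at 29.9 CPM in G164 tumor 3 and 26.7 CPM in G144 tumor 8, and at most 0.442 CPM elsewhere.

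**Figure D1:**
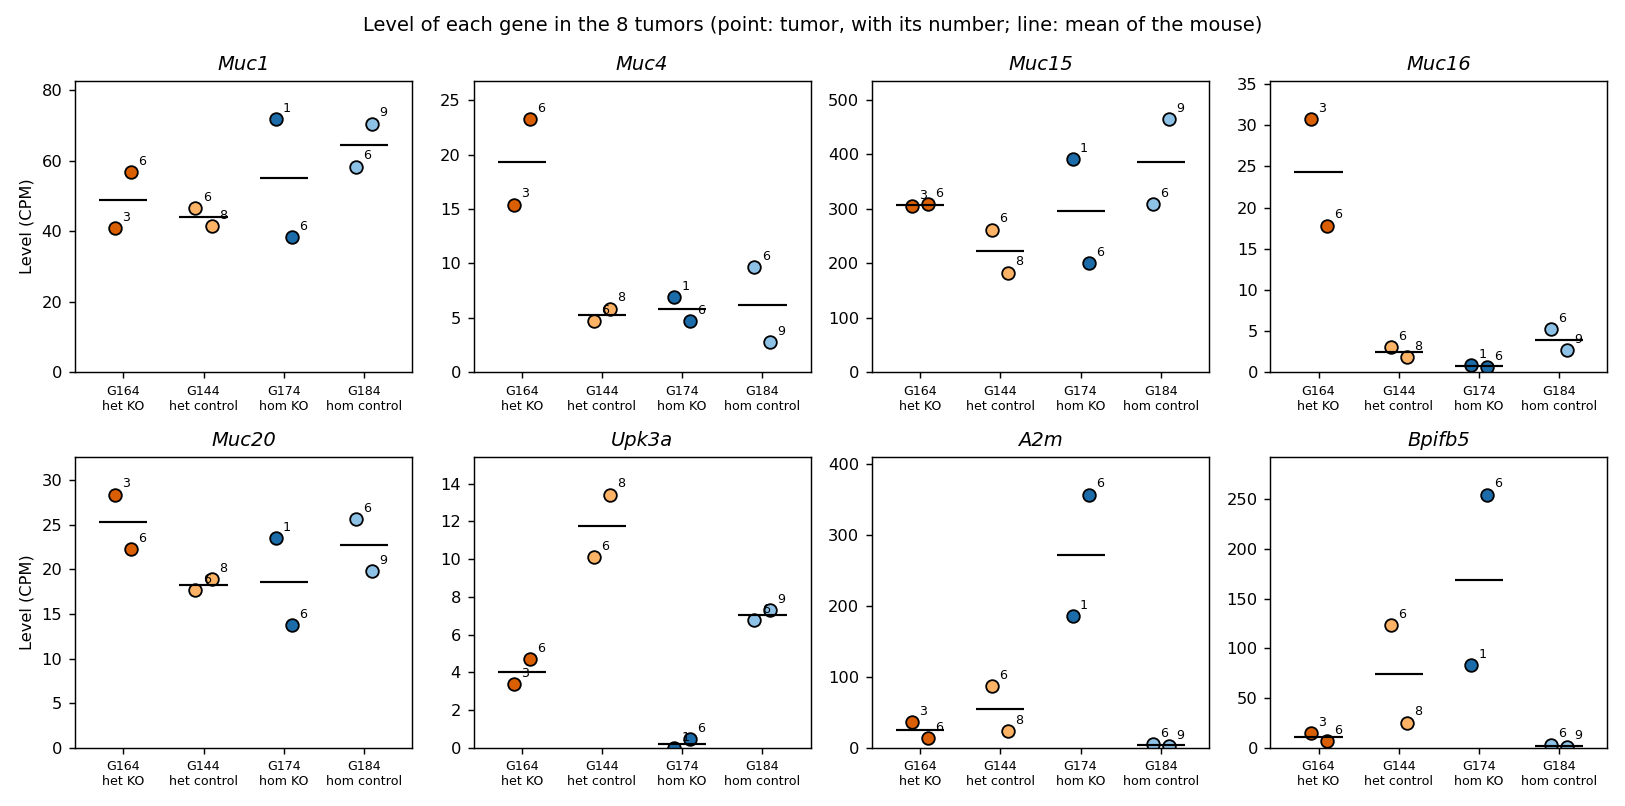
Level of the 8 genes in CPM (vertical axes, linear and starting at 0), with mice along the horizontal axis. Every point is 1 tumor marked with its number, and a line gives the mean for that mouse. Muc16 is highest in both tumors of G164, Upk3a is at or near 0 in G174, and A2m and Bpifb5 are highest in G174 tumor 6.

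For Muc1, Muc15 and Muc20 the highest mouse mean was at most 1.74 times the lowest, and tumors of mice next to each other in rank overlapped at every step. Muc1, the prototype membrane mucin of mammary epithelium, was at 40.8 and 56.7 CPM in G164, against 46.5 and 41.4 CPM in G144. It was at 71.8 and 38.3 CPM in G174, against 58.3 and 70.5 CPM in G184. The tumors of G174 alone spanned the range of Muc1 over the whole set. Its log2 fold change was 0.15 (SE 0.30) in heterozygotes and -0.23 (SE 0.29) in homozygotes, with edgeR adjusted p = 0.793 and 0.636.

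Muc15, a membrane mucin first found in milk fat globules, was the most abundant of the 5 mucins per length, at 84.9 CPM per kb of exon on average, against 22.6 CPM per kb for Muc1, 5.28 for Muc20, 0.778 for Muc4 and 0.298 for Muc16. It was at 305 and 309 CPM in G164, against 262 and 183 CPM in G144, and these tumors did not overlap. In the homozygous pair it was at 392 and 200.3 CPM in G174, against 309 and 465 CPM in G184. The log2 fold changes of 0.47 (SE 0.34) and -0.39 (SE 0.34) did not pass the test (edgeR adjusted p = 0.436 and 0.474). Muc20, a mucin known to bind the HGF receptor Met, was at 28.4 and 22.3 CPM in G164, against 17.7 and 18.9 CPM in G144. It was at 23.5 and 13.8 CPM in G174, against 25.7 and 19.8 CPM in G184. Its log2 fold changes were 0.47 (SE 0.27) and -0.29 (SE 0.27), with edgeR adjusted p = 0.32 and 0.499.

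Muc4 was high in the heterozygous KO alone. Muc4 is a large membrane mucin that binds the receptor Erbb2. It was at 15.4 and 23.3 CPM in G164, against 4.69 and 5.83 CPM in G144, while G174 had 6.86 and 4.70 CPM, against 9.68 and 2.72 CPM in G184. Both tumors of G164 stood above all 6 others, and the other 3 mice overlapped. The fitted log2 fold change of 1.88 (SE 0.56, 3.68-fold) in heterozygotes missed the threshold with all 8 tumors in the fit (edgeR adjusted p = 0.101), and it passed in a fit of G164 and G144 alone (adjusted p = 0.0311), with DESeq2 (adjusted p = 0.00402) and without the filter on low counts (adjusted p = 0.00156). In homozygotes it was -0.10 (SE 0.54).

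Muc16 was the one mucin of the 5 that passed the test, and it moved in opposite directions in the 2 KO comparisons. Muc16 carries the CA125 antigen of ovarian cancer and is a very long membrane mucin. It was at 30.8 CPM in tumor 3 and 17.8 CPM in tumor 6 of G164 (1614 and 1110 counts), against 3.00 and 1.81 CPM in G144. In the homozygous pair it was at 0.853 and 0.617 CPM in G174, against 5.22 and 2.69 CPM in G184. Means were 24.3 ± 9.16 CPM in G164 and 2.41 ± 0.842 CPM in G144, and 0.735 ± 0.167 CPM in G174 and 3.95 ± 1.79 CPM in G184 (SD, n = 2 tumors each). The groups did not overlap in either pair, while G184 and G144, between G164 and G174 in rank, overlapped with each other. Relative to its own control, Muc16 was 10.1-fold higher in G164 (log2 fold change 3.33, SE 0.46, edgeR adjusted p = 0.0243) and 5.37-fold lower in G174 (log2 fold change -2.43, SE 0.46, edgeR adjusted p = 0.0204). The difference between these 2 changes was -5.76 on the log2 scale (SE 0.64, edgeR adjusted p = 0.00265). That contrast is also the one of the younger mice (G174 and G144) against the older mice (G164 and G184). G184 and G144, which are both Cre-, did not differ beyond the threshold (log2 fold change 0.71, SE 0.43, edgeR adjusted p = 0.294).

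Leaving out any 1 tumor of G164 or G144 ended the heterozygous call of Muc16, with adjusted p between 0.0667 and 0.172 and a log2 fold change between 2.87 and 3.73 in these 4 fits. Leaving out tumor 1 of G174, tumor 6 of G174 or tumor 6 of G184 ended the homozygous call (adjusted p = 0.0600, 0.0778 and 0.0607), and so did a fit of G174 and G184 alone (adjusted p = 0.0515). The difference between the 2 changes passed in every fit without 1 tumor, with adjusted p between 0.00559 and 0.0154. As a background for these counts, 2.72% of all genes tested were called higher and 1.29% lower in heterozygotes, and 5.44% were called higher and 7.70% lower in homozygotes. For the difference, 12.0% of genes were called in the positive and 13.1% in the negative direction.

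Other markers moved with Muc16. Of the 11 keratinizing markers tested, 4 rose in G164 against G144 (Krt10, Ivl, Krtdap and Sbsn), none fell, and their median log2 fold change was 3.87, against 0.02 over all genes. Krt10, a keratin of cornifying cells, was at 66.6 and 17.5 CPM in G164, against 2.67 and 3.69 CPM in G144 (log2 fold change 3.73, SE 0.61, edgeR adjusted p = 0.0310). Krtdap, a protein of differentiating keratinocytes, was at 3.51 and 6.30 CPM in G164, against 0 and 0.0717 CPM in G144. Within G164 the 2 mucins did not follow 1 order, since Muc16 was higher in tumor 3 and Muc4 in tumor 6, whereas the keratinizing sum was higher in tumor 3. In the homozygous pair none of the 11 keratinizing markers was called, while Muc16 fell there. Of the 10 immune markers, 6 rose in G164 and 6 fell in G174, each against its own control, and their median log2 fold changes were 1.61 and -1.67. The Cre- controls differed as well, with 6 markers called higher and 0 lower in G184 than in G144 (median 1.58). In that comparison 6.17% of all genes were called higher. Cd3e, a chain of the T-cell receptor complex, had log2 fold changes of 1.74 (SE 0.24) and -2.50 (SE 0.25), and S100a9, a neutrophil protein, had 3.99 (SE 0.82) and -1.05 (SE 0.76). For G184 over G144, Cd3e had 1.70 (SE 0.24, edgeR adjusted p = 0.00974) and S100a9 had 1.11 (SE 0.76), not called. Basal markers were also higher in G164 than in G144, as given above. The part of these cells in the levels of Muc16 and Muc4 was not tested.

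**Figure D2:**
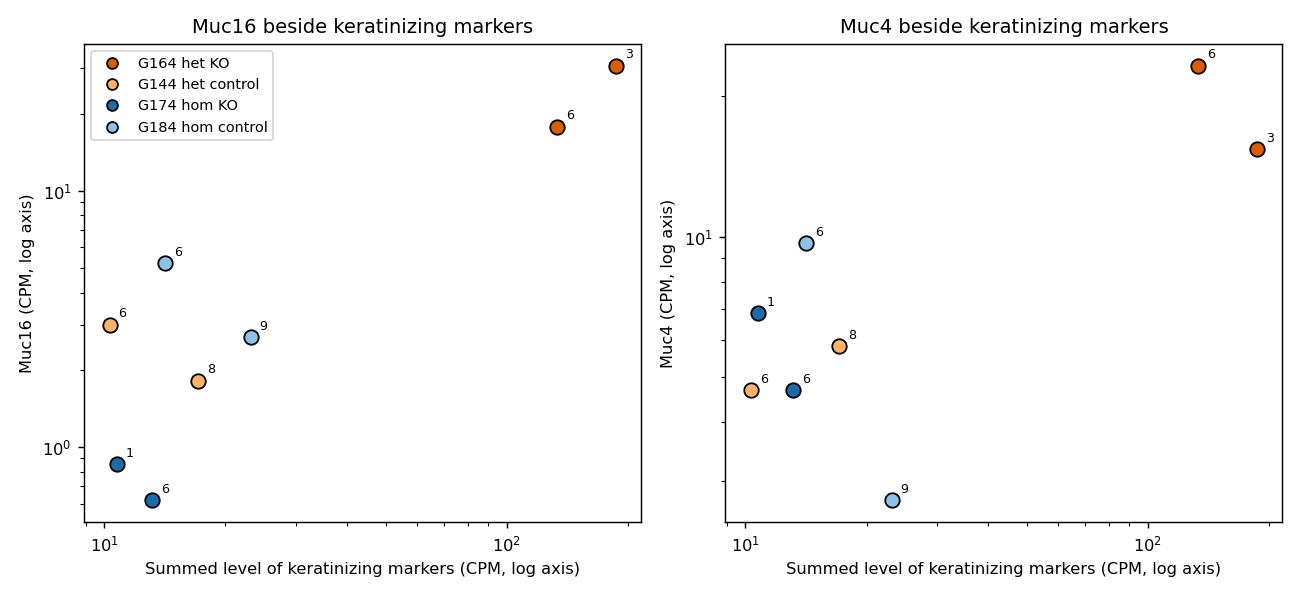
Level of Muc16 (left) and Muc4 (right) against the summed level of the 13 keratinizing markers, all in CPM on log axes, with 1 point per tumor and its number. Both tumors of G164 lie at the upper right, at 187 and 134 CPM of the markers, and among the other 6 tumors, between 10.3 and 23.1 CPM, the tumors of G174 are lowest in Muc16.

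The mucin family as a whole held few further changes. Of 18 mucin symbols listed, 16 were found and 10 had enough counts to be tested. Muc16 was the 1 gene called in heterozygotes and the 1 gene called in homozygotes, the median log2 fold change of the 10 was 0.76 in heterozygotes and -0.26 in homozygotes, and 8 of 10 were positive in heterozygotes against 3 of 10 in homozygotes. The difference was called for Muc16 and for Mucl2, a small mucin-like gene at no more than 0.514 CPM. The call of Mucl2 was lost in each run alone and in every fit without 1 tumor except that without tumor 6 of G164. Between the control mice, Muc13 alone was called, at 0.649 and 0.513 CPM in G184, against 1.52 and 5.31 CPM in G144 (log2 fold change -2.55, SE 0.66, edgeR adjusted p = 0.0498). That call was lost with unstranded counts, in each run alone, in a fit of the control mice alone and without any 1 tumor of G164, G144 or G184. Genes called between these control mice made up 6.17% of genes in the positive and 6.40% in the negative direction. Muc19, a gel-forming mucin of salivary glands and the most abundant family member outside the 5, averaged 1.94 CPM and was highest in G164 tumor 3, at 5.85 CPM (log2 fold change 2.59, SE 0.79 in heterozygotes, edgeR adjusted p = 0.108). The gel-forming Muc5ac and Muc5b were near 0, with 9 and 6 counts over all tumors.

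**Figure D3:**
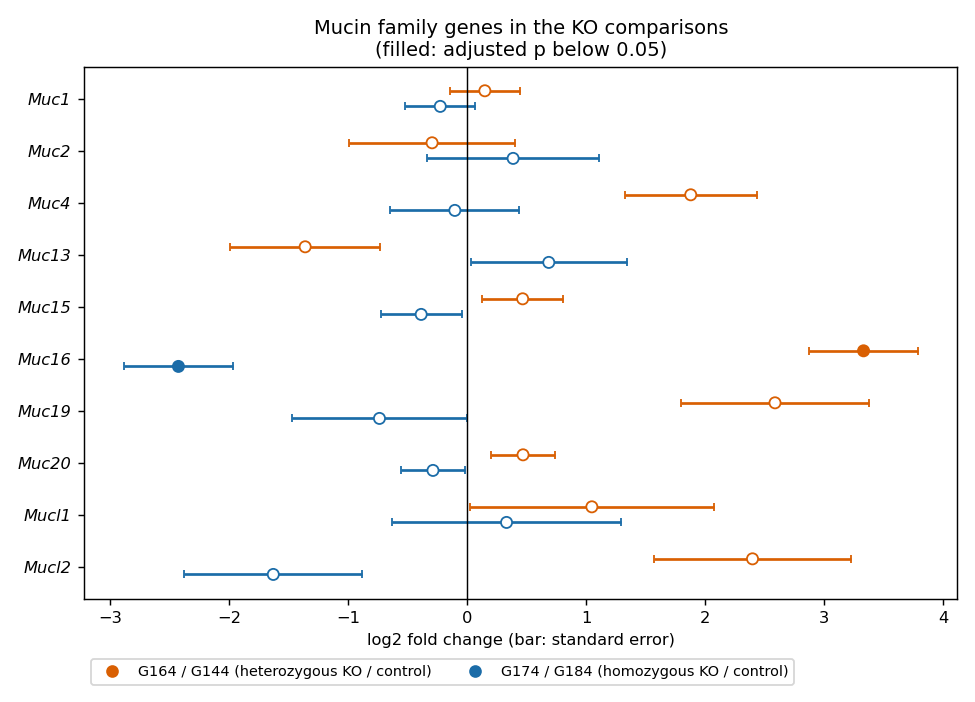
Fitted log2 fold change (horizontal axis, with its standard error as the bar) of the 10 mucin family genes tested, for G164 over G144 and for G174 over G184. Filled points passed an adjusted p of 0.05, and Muc16 is the only gene with filled points, at 3.33 and -2.43.

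Among enzymes that build the O-linked sugars of mucins, 24 of 25 were tested. In heterozygotes 1 fell and none rose, and in homozygotes 2 rose and 1 fell, with list medians of -0.02 and -0.24. Of all genes tested, 1.29% fell and 2.72% rose in heterozygotes, and 5.44% rose and 7.70% fell in homozygotes. Gcnt1, which forms the branched core of these sugars, went the other way from Muc16. It was at 21.0 and 26.2 CPM in G164, against 59.8 and 44.0 CPM in G144 (log2 fold change -1.14, SE 0.21, edgeR adjusted p = 0.0394). It was at 77.1 and 55.7 CPM in G174, against 22.6 and 22.5 CPM in G184 (log2 fold change 1.56, SE 0.21, edgeR adjusted p = 0.00851). Neither pair overlapped. Galnt12, which adds the first sugar, rose in G174 (log2 fold change 0.94, SE 0.16, edgeR adjusted p = 0.0154).

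The next list held 11 genes, partners of mucins together with Hgf, which binds Met and not a mucin. Of these, 1 rose and 1 fell in heterozygotes, and 1 rose and 2 fell in homozygotes. Of all genes tested, 2.72% rose and 1.29% fell in heterozygotes, and 5.44% rose and 7.70% fell in homozygotes. Msln, mesothelin, is the partner of Muc16 in cell adhesion. It had 0 and 0.0481 CPM in G164, against 2.01 and 13.7 CPM in G144 (edgeR adjusted p = 0.0378), and no more than 0.212 CPM in any tumor of G174 or G184. Msln was near 0 in the mouse in which Muc16 was highest, and also in G174, in which Muc16 was lowest. The mesothelial markers Wt1, Upk3b, Lrrn4 and Nkain4 were at or near 0 in every tumor, with 17 counts or fewer each. The remaining gene of that list, Gpm6a, a membrane glycoprotein also found in neurons, had 339 counts in all and moved in the direction of Muc16. It was at 1.31 and 1.57 CPM in G164, against 0.320 and 0.287 CPM in G144 (log2 fold change 2.24, SE 0.31, edgeR adjusted p = 0.0245). It was at 0.320 and 0.271 CPM in G174, against 0.832 and 0.575 CPM in G184 (log2 fold change -1.25, SE 0.31, edgeR adjusted p = 0.0414), and its part in the levels of Muc16 was not tested. Hgf, the ligand of Met, rose in G164 (log2 fold change 1.31, SE 0.26) and fell in G174 (log2 fold change -1.52, SE 0.26), as Muc16 did, and both calls passed (edgeR adjusted p = 0.0427 and 0.0154). Unlike Muc16, these genes were also called between the controls. For G184 over G144 the log2 fold change was 1.27 for Hgf, 1.21 for Gpm6a and -5.88 for Msln (edgeR adjusted p = 0.0250, 0.0466 and 0.0267).

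Upk3a was lower in both KO mice than in their controls, and it was at or near 0 in the homozygous KO. It was at 3.37 and 4.70 CPM in G164, against 10.1 and 13.4 CPM in G144. It had 0 counts in tumor 1 and 29 counts (0.437 CPM) in tumor 6 of G174, against 6.76 and 7.27 CPM in G184. A count of 0 allows up to 3 counts, or 0.0457 CPM, in that tumor, and this limit covers counting error only. The mice ranked G144, G184, G164 and G174 with no overlap between neighbors in that order. The ratio of the means was 0.344 for G164 over G144 and 0.0311 for G174 over G184. The fitted log2 fold change of -4.99 in homozygotes rests on 29 counts in G174, and it was -4.0 without tumor 1 and -11.77 without tumor 6 of that mouse.

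The protein-coding gene whose pattern was most like that of Upk3a over the 8 tumors was Abi1, with r = 0.963 on log2(CPM + 0.5), ahead of Mid1ip1 (r = 0.961) and Msx2 (r = 0.959). Upk3a was picked for differences between these same mice, and Abi1 differs between them by genotype, so this rank is no test of a link. The correlation is a description over 8 tumors from 4 mice, and 46 genes had r above 0.9. The partners of Upk3a in the urothelial plaque did not share its level. Upk2, the most abundant other uroplakin, averaged 0.889 CPM, with log2 fold changes of 0.50 (SE 0.40) and 0.26 (SE 0.39). Upk1b, which forms the dimer with Upk3a, did not exceed 0.622 CPM, and Upk3b and Upk3bl had 3 counts each. None of the 3 other uroplakins tested was called in either KO comparison.

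A2m and Bpifb5 shared 1 pattern, highest in the homozygous KO and lowest in its control. A2m was at 36.3 and 13.6 CPM in G164, against 86.7 and 23.4 CPM in G144, and these tumors overlapped. It was at 186 and 357 CPM in G174, against 4.78 and 2.30 CPM in G184, a ratio of means of 76.6. Bpifb5 was at 14.9 and 6.51 CPM in G164, against 123 and 25.3 CPM in G144, with no overlap. It was at 83.4 and 255 CPM in G174, against 3.03 and 1.03 CPM in G184, a ratio of means of 83.2. The mice ranked G174, G144, G164 and G184 in both genes, with G144 and G164 overlapping in A2m and G174 and G144 overlapping in Bpifb5. The control mice stood far apart as well, with the mean of G184 over that of G144 at 0.0643 for A2m and 0.0273 for Bpifb5. Counts in the lowest mouse, G184, were 487 for A2m and 281 for Bpifb5, so these low levels were not at the limit of detection. Without tumor 6 of G144 the fitted heterozygous log2 fold change was 0.07 for A2m, against -1.15 with all tumors, and -1.26 for Bpifb5, against -2.80. Immune markers were also lower in G174 than in G184, as given above, and their part in the levels of A2m, Bpifb5 and Upk3a was not tested.

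The 2 genes also moved together between tumors of a mouse. They were picked for differences between mice, but with earlier results of these same tumors known, so this is a description. The tumor with more A2m was the tumor with more Bpifb5 in 4 of 4 mice, namely tumor 3 of G164 and tumor 6 of the other 3 mice. Of the 13431 protein-coding genes with a mean of at least 1 CPM, 7.39% shared the direction of A2m in all 4 mice. Within mice the tumors differed 1.92-fold to 3.71-fold in A2m and 2.28-fold to 4.87-fold in Bpifb5. Their spread between tumors of a mouse was wide beside other genes, with a pooled SD of 0.94 for A2m and 1.14 for Bpifb5 on the log2 scale, against a median of 0.155 over these genes. The same SD was 0.65 for Muc4, 0.47 for Muc16, 0.44 for Muc15, 0.38 for Upk3a and Muc1, and 0.32 for Muc20. Each of the 8 genes thus varied more between tumors of a mouse than 83.9% of these genes.

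The next gene upstream of Bpifb5 moved with it. Bpifb1 (chr2:154190818-154220369, plus strand), another BPI fold protein made by airway goblet cells, ends 3372 bases before Bpifb5 (chr2:154223742-154240902, plus strand) begins in GRCm38. Bpifb1 was at 3.96 and 0.898 CPM in G164, against 37.0 and 7.03 CPM in G144, and at 55.5 and 60.9 CPM in G174, against 1.13 and 0.870 CPM in G184. It was higher in the tumor with more Bpifb5 in every mouse, with r = 0.958 over the 8 tumors. Bpifb1 was called in homozygotes (log2 fold change 5.86, SE 1.00, edgeR adjusted p = 0.0157) and missed the threshold in heterozygotes (log2 fold change -3.19, SE 0.88, edgeR adjusted p = 0.0871), where it passed with DESeq2 (adjusted p = 0.0171) and without the filter on low counts (adjusted p = 0.000163). The homozygous call was lost without tumor 6 of G184 (adjusted p = 0.0607) or tumor 9 of G184 (adjusted p = 0.107). Bpifb1 was also called between the controls (G184 over G144, log2 fold change -4.46, SE 0.95, edgeR adjusted p = 0.0288). On the other side of Bpifb5, Bpifb9a did not exceed 1.49 CPM.

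The promoters of Bpifb5 and Bpifb1 are shown because these neighbors moved together while their sequences share none of the motifs searched. Each line gives the 250 bases before the start of the gene, 5′ to 3′, from RefSeq on GRCm38.p6, at chr2:154223492-154223741 and chr2:154190568-154190817, and capitals mark matches on either strand to the GC box GGGCGG:
Bpifb5: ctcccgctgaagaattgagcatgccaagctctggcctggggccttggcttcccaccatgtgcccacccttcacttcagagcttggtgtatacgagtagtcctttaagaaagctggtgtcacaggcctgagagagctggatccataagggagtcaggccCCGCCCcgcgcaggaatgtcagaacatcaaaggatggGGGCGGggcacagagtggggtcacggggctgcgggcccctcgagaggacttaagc
Bpifb1: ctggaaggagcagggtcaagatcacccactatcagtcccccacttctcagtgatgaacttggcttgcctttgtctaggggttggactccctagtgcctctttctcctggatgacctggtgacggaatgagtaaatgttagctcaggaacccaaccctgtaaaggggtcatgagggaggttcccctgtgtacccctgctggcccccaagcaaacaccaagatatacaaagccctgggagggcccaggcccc
Bpifb5 held 2 GC boxes and Bpifb1 none, and 32.9% of the 27025 promoters of the same length held at least 1. The TATA box TATAAA, the AP-1 motif TGANTCA, the STAT motif TTCNNNGAA and the E-box CACGTG, searched on both strands, had no match in these windows, against 13.0%, 6.87%, 7.18% and 6.05% of all promoters. Promoters were found for 6 of the 8 genes and not for Muc15 and A2m. Muc1 and Upk3a also held 2 GC boxes each, and Muc1 and Muc4 each held 1 TATAAA.

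A2m had a like neighbor of its own. Gm7298, the next protein-coding gene after A2m on chromosome 6, was at 8.61 and 2.47 CPM in G164, against 35.7 and 13.6 CPM in G144. It was at 110 and 10.5 CPM in G174, against 1.07 and 0.357 CPM in G184 (log2 fold change 6.38, SE 1.38, edgeR adjusted p = 0.0295). Between the controls it was called as well (G184 over G144, log2 fold change -5.09, SE 1.32, edgeR adjusted p = 0.0489). It differed from A2m in G174, where tumor 1 held more Gm7298 and tumor 6 more A2m. The neighbors of the mucins moved less, and Tnk2, before Muc4 and Muc20, had log2 fold changes of -0.39 (SE 0.11) and 0.70 (SE 0.11), the second of them called.

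**Figure D4:**
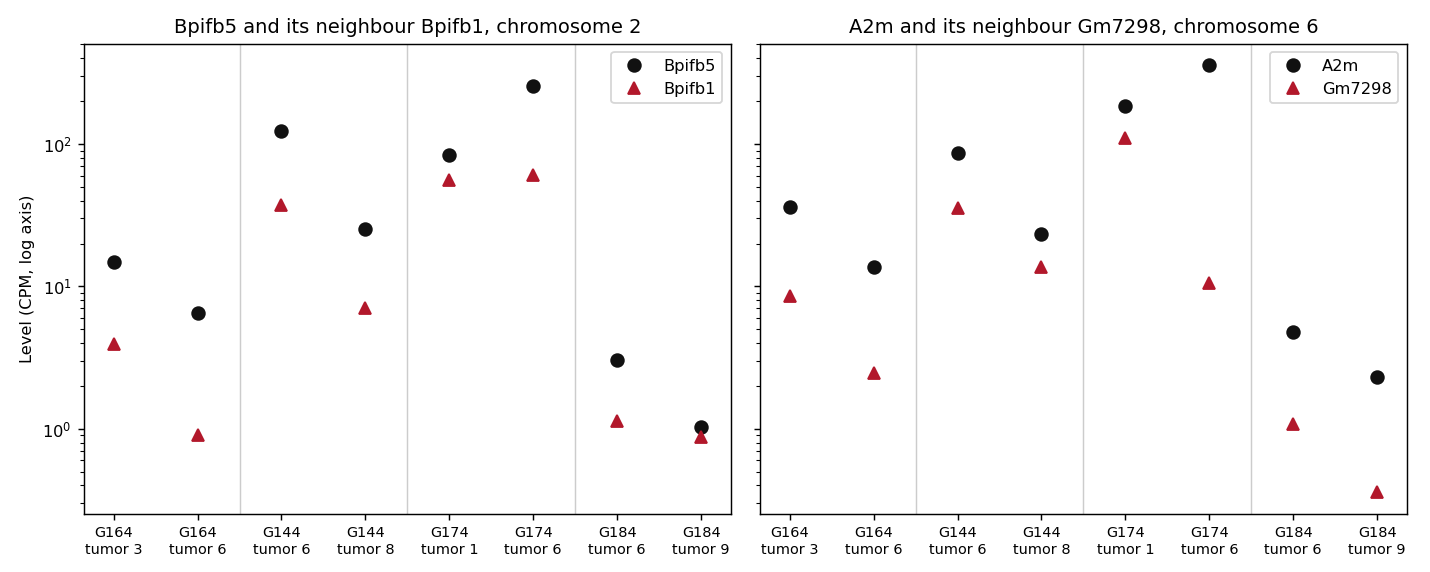
Levels in CPM (log axis) of Bpifb5 with its neighbor Bpifb1 (left) and of A2m with its neighbor Gm7298 (right) in the 8 tumors, ordered by mouse. Means of all 4 genes are lowest in G184, and Bpifb1 follows Bpifb5 in each mouse, whereas Gm7298 and A2m rank the tumors of G174 in opposite orders.

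Among the genes listed, relatives of Bpifb5 were called in both KO comparisons, and relatives of A2m in neither. In heterozygotes the call was Bpifc alone, which rose where Bpifb5 was lower. The neighbor Gm7298, called in homozygotes, was not among the A2m relatives listed. Of the other genes listed for the A2m family and its receptor, 5 were tested and none was called in either KO comparison. Their log2 fold changes were positive for 5 of 5 in heterozygotes and 1 of 5 in homozygotes, with medians of 0.62 and -0.56. Lrp1, the receptor that clears A2m, was at 424 and 550 CPM in G164, against 216 and 267 CPM in G144, and at 294 and 207 CPM in G174, against 395 and 730 CPM in G184. Its changes missed the threshold (edgeR adjusted p = 0.111 and 0.0538), although the difference between them was called (log2 difference -2.18, SE 0.45). Mug1 and A2ml1, close relatives of A2m, averaged 0.411 and 1.86 CPM. Of the 9 other BPI fold genes tested, 1 rose in heterozygotes (Bpifc, at no more than 0.978 CPM), and 1 rose (Bpifb1) and 2 fell (Pltp and Bpifc) in homozygotes. Over all genes, 2.72% were called higher and 1.29% lower in heterozygotes, and 5.44% higher and 7.70% lower in homozygotes. The log2 fold changes of the 9 were positive for 8 in heterozygotes and 3 in homozygotes, with medians of 1.53 and -0.81, against 0.0152 and -0.0012 over all genes. Pltp, the phospholipid transfer protein, was at 8.14 and 11.3 CPM in G174, against 21.1 and 34.6 CPM in G184 (log2 fold change -1.52, SE 0.31, edgeR adjusted p = 0.0243).

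Genes whose pattern was most like those of A2m and Bpifb5 came to a large extent from chromosome 11, on which neither lies. Tomm70a, Aldh7a1 and Ogfod3 were most like A2m (r = 0.978, 0.976 and 0.975), with Bpifb5 in rank 5 (r = 0.971), and Akap1, Trim37 and Kat2a were most like Bpifb5 (r = 0.994, 0.990 and 0.989). Of 341 genes with r above 0.9 to A2m, 157 (46.0%) lie on chromosome 11, and of 689 with r above 0.9 to Bpifb5, 279 (40.5%) do, against 8.35% of the 13431 genes compared. Chromosome 16 held 13.2% and 7.55% of the like genes, against 3.16% of all. Chromosome 17 held 7.6% and 9.87% of them, against 4.85% of all. The median deviation of the 1121 chromosome 11 genes from their own mean over tumors was -0.02 and -0.16 on the log2 scale in G164, against 0.14 and -0.01 in G144. It was 0.15 and 0.21 in G174, against -0.10 and -0.24 in G184. The chromosome 11 shift was highest in G174 tumor 6 and lowest in G184 tumor 9, the tumors with the most and the least A2m. Chromosome 16 was at 0.289 and 0.159 in G174, against -0.152 and -0.087 in G184. Chromosome 17 was at 0.231 and 0.070 in G174, against -0.131 and -0.141 in G184. Both were highest in G174 tumor 1, and they were lowest in G184 tumor 6 (chromosome 16) and G164 tumor 6 (chromosome 17). The count by chromosome was chosen after the values were seen, and its relation to the 2 genes was not tested.

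**Figure D5:**
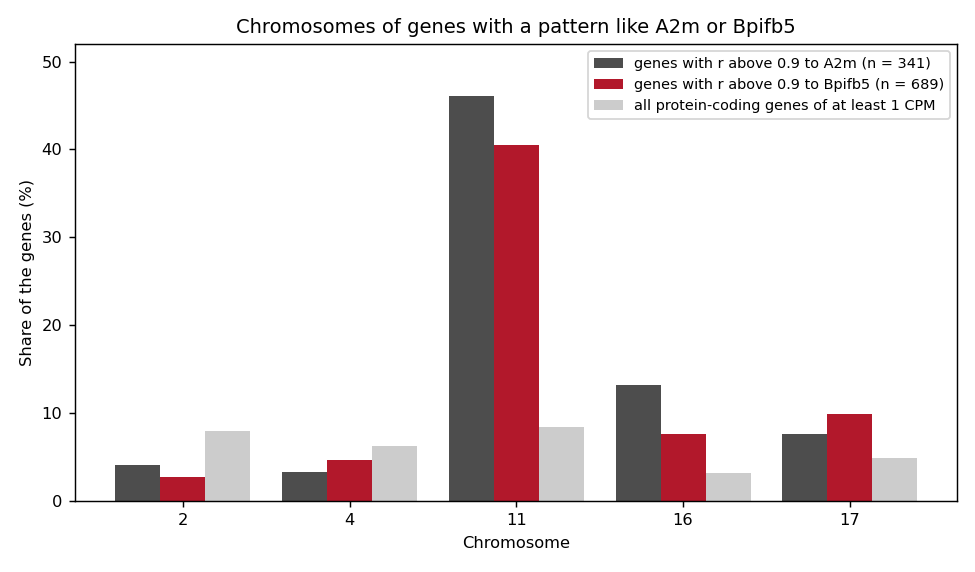
Share in percent of the genes with r above 0.9 to A2m (n = 341) or to Bpifb5 (n = 689) that lie on each of 5 chromosomes, beside the share of all 13431 protein-coding genes of at least 1 CPM. Chromosome 11 holds 46.0% and 40.5% of the like genes and 8.35% of all genes.

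The mucins fell into sets of their own. Muc1 and Muc15 correlated with r = 0.87 over the 8 tumors and had the same tumor higher in 4 of 4 mice. All 5 mucins had negative values with Bpifb5, with r between -0.56 and -0.50 for Muc1, Muc15, Muc16 and Muc20, and -0.18 for Muc4. Muc16 correlated with Muc4 at r = 0.78 and with Muc20 at r = 0.68, and the higher tumor was the same in 2 of 4 mice for Muc4 and in 3 of 4 for Muc20. These values describe 8 tumors that share mice, and no test was made of them. Genes most like the mucins were Lrrc61, Usp20 and Mbp for Muc1 (r = 0.990, 0.978 and 0.976), Naa30, Mon2 and Wdr37 for Muc15 (r = 0.987, 0.987 and 0.978), and Igfbp6, Lgi2 and Cmah for Muc4 (r = 0.983, 0.977 and 0.953). For Muc16 they were Armc8, Adam23 and Glul (r = 0.965, 0.955 and 0.952), and for Muc20 they were Phlpp1, Spon1 and Emilin1 (r = 0.977, 0.952 and 0.933).

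The genes also differ in build, as the annotation gives it. Muc16 (chr9:18495455-18674530, minus strand) has 78 exons and 25434 coding bases, longer than 99.99% of genes, with 1 exon of 11544 bases, whereas Muc15 (chr2:110721340-110739527, plus strand) has 993 coding bases and Muc1 (chr3:89229057-89233381, plus strand) has 1893. Muc4 (chr16:32735886-32782391, plus strand, 10410 coding bases) and Muc20 (chr16:32777419-32797435, minus strand) overlap tail to tail by 4973 bases. Reads on the strand opposite to the gene made up 14.1% of the stranded reads of Muc4 and 5.18% of those of Muc20, against 1.03% or less for the other 6 genes. Upk3a lies at chr15:85017141-85022547 on the plus strand and A2m at chr6:121635376-121679227 on the plus strand.

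A few regulators and products of secretory mammary epithelium fell in homozygotes, a comparison in which 7.70% of all genes were called lower. Of 11 regulators of secretory epithelium, none was called in heterozygotes, and 2 fell and none rose in homozygotes, with list medians of 0.02 and -0.21. Foxa1, a factor of luminal cells, was at 7.25 and 7.21 CPM in G174, against 14.8 and 27.04 CPM in G184 (log2 fold change -1.53, SE 0.31). Creb3l1, a factor of secretory capacity, was at 4.11 and 2.42 CPM in G174, against 9.41 and 9.84 CPM in G184 (log2 fold change -1.56, SE 0.33). Of 15 other secreted epithelial products tested, none was called in heterozygotes and 2 fell in homozygotes. These were the milk protein gene Lalba, at 40.3 and 31.1 CPM in G174, against 211 and 252 CPM in G184, and Spp1, osteopontin, at 273 and 566 CPM in G174, against 1253 and 2595 CPM in G184. In homozygotes 6 of the 15 had positive log2 fold changes, with a list median of -0.38. Among these 6 was the milk protein gene Wap, at 11.5 and 58.8 CPM in G174, against 14.2 and 2.6 CPM in G184. Its tumors overlapped and it was not called (log2 fold change 2.06, SE 0.92). Of the 9 airway and salivary secretory markers, 6 were tested, none rose in either KO comparison and 1 fell in homozygotes (Sftpc, at no more than 0.901 CPM). The airway marker Scgb1a1 had 8 counts over all tumors. Of the 8 luminal markers, 1 fell and none rose in heterozygotes. In homozygotes 2 rose and none fell, where 5.44% of all genes were called higher. Epcam rose in G174 (log2 fold change 0.44, SE 0.11), and Cldn4 fell in G164 (log2 fold change -0.59, SE 0.12) and rose in G174 (log2 fold change 0.58, SE 0.12). In homozygotes 5 of the 8 were positive, while Krt19, Krt8 and Krt18 had log2 fold changes of -1.075, -0.22 and -0.12, not called. None of the 8 basal markers was called in either comparison, although all 8 had positive log2 fold changes in heterozygotes (median 0.998) and 1 of 8 did in homozygotes (median -1.56), with Acta2 at log2 fold changes of 0.76 (SE 0.66) and -1.30 (SE 0.67). Of the 12 stromal, vessel, fat and muscle markers, Dcn and Pdgfra, both of fibroblasts, rose in G164, and Dcn fell in G174.

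Taking the mouse as the unit, Cre+ mice (G164 and G174) were set against Cre- mice (G144 and G184) on counts summed per mouse. No gene of 23281 passed (0% called by edgeR), with 191 genes at an unadjusted p under 0.05 by edgeR, while DESeq2 called 22. The log2 fold changes of Cre+ over Cre- were 1.92 (SE 1.48) for Muc16, 1.14 (SE 0.62) for Muc4, 0.10 (SE 0.24) for Muc20, -0.04 (SE 0.23) for Muc1 and -0.0033 (SE 0.29) for Muc15. Muc16 was higher than its control in one Cre+ mouse and lower in the other, as given above.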

How the data were processed

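Total RNA of 8 tumors was sequenced as stranded libraries after removal of ribosomal RNA, each on 4 lanes in 2 runs. The authors aligned reads to GRCm38/mm10 with STAR after bcl2fastq and deposited raw counts per gene (unstranded, forward and reverse strand) for 64 lane files, and unstranded counts summed per mouse. For both tools the version was not given in the sources used here. Reverse-strand counts were summed per tumor, and lanes and runs were not taken as replicates. Lane counts of the 8 genes varied 0.279 to 2.70 times as much as counting error. Reads outside genes (28.3% to 34.9% of all reads) were kept out. Names and places come from GENCODE M21.

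The function filterByExpr set the filter on low counts, sums were scaled by TMM, and all 8 tumors were fitted by mouse with the quasi-likelihood test of edgeR 4.0.16 (R 4.3.3), with Benjamini-Hochberg adjustment over 22187 genes and a threshold of 0.05. The 4 residual degrees of freedom are the 2 tumors of each mouse. The test was checked on simulated data. The members and gene lists were chosen with earlier results of these data known. Named are the 8 genes, up to 2 other genes per list (the largest change among those called with a mean of at least 1 CPM in a KO comparison, or the most abundant), the 3 genes most like each by Pearson r, and the neighbors; further genes named in the text were chosen after their values were seen. Likeness used log2(CPM + 0.5). Alternatives were DESeq2 1.42.0 as test or as source of size factors, unstranded counts, no filter, only the mice compared, each run alone, unscaled sums and leaving out each tumor.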

Additional observations from a re-analysis of the deposited data

Results flagged for a closer look

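Several genes changed unequally in the homozygous and the heterozygous comparison, by an edgeR test of the difference itself. The difference is given here as the homozygous minus the heterozygous log2 fold change. The same contrast sets G174 and G144 against G164 and G184, that is, the younger against the older mice. Unequal KO changes and age can therefore not be told apart in it. For Muc16 the difference was -5.76 (adjusted p = 0.00265). The neighbor of Bpifb5, Bpifb1, differed by 9.05 (adjusted p = 0.00563), and the neighbor of A2m, Gm7298, by 8.54 (adjusted p = 0.0164). Bpifb5 itself was lower in both tumors of G164 than in G144 and higher in both tumors of G174 than in G184. Its fitted difference was 9.17, and this difference was not tested, because the gene was picked for such values.

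Among enzymes and partners of mucins, with the Met ligand Hgf, the difference was 2.70 for Gcnt1, 1.08 for Galnt12, 8.02 for Msln and -2.83 for Hgf. Among the relatives and receptor of the picked genes it was -2.18 for Lrp1 and -2.66 for Pltp. Among regulators and secreted products it was -2.38 for Creb3l1, -1.58 for Foxa1, -2.95 for Lalba and -3.37 for Spp1. The neighbors Mtx1 of Muc1 and Tnk2 of Muc4 differed by 0.58 and 1.10. Among cell type markers the difference was 1.17 for Cldn4, 0.84 for Epcam, -13.15 for Krtdap, -3.65 for Krt10, -5.04 for S100a9, -4.24 for Cd3e, -3.49 for Dcn and -1.40 for Pdgfra. Adjusted p ranged from 0.00114 for Cd3e to 0.0449 for Mtx1 over these genes. In Krtdap the fitted size depends on tumors at 0. Since 12.0% and 13.1% of all genes were called in this contrast, such differences were common. Gcnt1, Msln, Hgf, Lrp1, Pltp, Tnk2, Cldn4, Cd3e, Dcn and Pdgfra were also called between the Cre- controls. The other genes of this paragraph were not.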

How the results depend on the processing

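Each genotype is 1 mouse, so no setting separates genotype from mouse or age, and fits without 1 tumor assume that the lone tumor varies like those of other mice. No paired analysis was possible because the mice share fewer than 2 tumor numbers. Mucin family genes called in heterozygotes numbered 1 (Muc16), but 4 with no filter, 3 with DESeq2, 2 with only the mice compared, and 0 to 2 without 1 tumor. In homozygotes they numbered 1, but 0 with only the mice compared and 0 to 1 without 1 tumor. For the difference they numbered 2 (Muc16 and Mucl2; Muc16 and Muc19 in run 1 alone), but 5 with no filter, 4 with DESeq2, 1 with run 2 alone and 1 to 3 without 1 tumor. Between controls they numbered 1 (Muc13), but 4 with no filter, 2 with DESeq2, 0 with unstranded counts, run 1 alone, run 2 alone or only the mice compared, and 0 to 1 without 1 tumor. The Cre comparison gave 0 in every fit. The cause was not tested. Directions of Muc16 held in every alternative. Without 1 tumor, Muc1 ran from -0.11 to 0.36 on the log2 scale in heterozygotes, from -0.75 to 0.18 in homozygotes, from -0.89 to 0.048 in the difference and from -0.29 to 0.18 in the Cre comparison. Muc4 ran from -0.74 to 1.12 in homozygotes and from -0.96 to 0.90 between controls. Muc15 ran from -0.95 to 0.044 in homozygotes and from -0.25 to 0.22 in the Cre comparison, where run 1 alone gave 0.0066. Muc20 ran from -0.72 to 0.072 in homozygotes and from -0.071 to 0.26 in the Cre comparison. None of these reversed values had passed the test.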

Other observations

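Some genes of salivary and related glands, and the A2m relative A2ml1, stood highest in single tumors, and they were chosen after their values were seen. Muc19, Bpifa2, A2ml1 and Prol1 were all highest in G164 tumor 3, at 5.85, 2.52, 5.14 and 2.71 CPM, and in that mouse tumor 6 had 1.19, 0.626, 1.08 and 0.513 CPM. G164 tumor 3 also had the highest keratinizing sum, at 187 CPM, and the part of keratinizing cells in these levels was not tested. Bpifa2 was also at 1.496 and 2.04 CPM in G184. Other genes of the airway and salivary list had their highest level in G144 tumor 8, among them Smr3a (0.251 CPM), Bhlha15 (76.6 CPM) and Aqp5 (585 CPM). Amy1, the salivary amylase, was highest in G184 tumor 6, at 22.1 CPM, with 20.7 CPM in G164 tumor 3. Bpifb3, a further BPI fold gene, was at 3.45 CPM in G174 tumor 6 and at no more than 0.457 CPM in the other 7 tumors.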
